A study of Mus musculus with 20 samples.

Results

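The genes described here are 10 genes of insulin and insulin-like growth factor (IGF) signalling, 10 of the 57180 Ensembl gene identifiers counted. They were picked by name, with earlier results of these data known, and each symbol matched 1 identifier. They are the ligands Igf1 and Igf2, the receptors Insr, Igf1r and Igf2r, the receptor adaptors Irs1 and Irs2, and the IGF-binding proteins Igfbp2, Igfbp4 and Igfbp5. Expression was measured by poly(A)-selected, stranded RNA sequencing of tissue punches from 2 mouse brain regions. One, the paraventricular thalamic nucleus (PVT), lies at the midline beside the third ventricle, and the other, the posterior insular cortex (pIC), is cortex that receives pain and visceral input. The question set by the design was how painful diabetic neuropathy, with anxiety-like behaviour, changed gene expression in each region.

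The STZ mice had been injected once into the peritoneum with streptozotocin (STZ) at 200 mg/kg, which enters pancreatic beta cells and destroys them, and were sampled at week 7. The control mice had received vehicle and were sampled at the same week. Each region had 6 STZ and 4 control libraries, so the 4 groups were PVT of STZ mice, PVT of control mice, pIC of STZ mice and pIC of control mice. No allele or transgene is named for any group, and the sources used here give no strain, age, sex or blood glucose. The model lacks insulin because beta cells are lost, so it stands for insulin-deficient diabetes. Nothing in the labels says whether the libraries of a group came from separate animals, so p-values measure the spread between these libraries.

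Insulin and the IGFs are secreted hormones that bind receptor tyrosine kinases at the cell surface. The active receptor phosphorylates adaptor proteins, which recruit PI3-kinase and switch on AKT, and AKT keeps FOXO transcription factors out of the nucleus. IGF-binding proteins hold IGFs outside the cell and set how much reaches the receptor. In the adult brain, insulin arrives mainly from the blood, Igf1 is made by scattered neurons and by microglia, and Igf2 is made chiefly by the choroid plexus and the leptomeninges.

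RefSeq promoter entries, 250 bases before to 50 bases after a transcription start on build GRCm38.p6, were available for 9 of the 10 genes and not for Insr. Those of 4 genes are shown. Igf1 had the largest STZ difference of the 10, Igf2 and Igfbp2 varied together between libraries, and Igfbp4 varied most in PVT. Capitals mark matches, on either strand, to the GC box GGGCGG, to the E-box of bHLH factors CACGTG, or to the promoter element TATAAA, which TBP binds. The FOXO motif GTAAACA and the cyclic AMP response element TGACGTCA were searched on both strands too, and no match overlapped another motif's match. The Igf1 entry is chr10:87860861-87861160 on the plus strand and the Igf2 entry chr7:142666767-142667066 on the minus strand. The Igfbp2 entry is chr1:72824230-72824529 and the Igfbp4 entry chr11:99040994-99041293, both on the plus strand.
Igf1: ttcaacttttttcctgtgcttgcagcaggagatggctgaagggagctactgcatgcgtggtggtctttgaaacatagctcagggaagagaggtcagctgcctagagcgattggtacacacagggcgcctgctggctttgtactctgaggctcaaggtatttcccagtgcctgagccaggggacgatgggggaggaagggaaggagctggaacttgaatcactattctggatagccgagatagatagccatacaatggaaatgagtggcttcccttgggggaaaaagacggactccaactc
Igf2: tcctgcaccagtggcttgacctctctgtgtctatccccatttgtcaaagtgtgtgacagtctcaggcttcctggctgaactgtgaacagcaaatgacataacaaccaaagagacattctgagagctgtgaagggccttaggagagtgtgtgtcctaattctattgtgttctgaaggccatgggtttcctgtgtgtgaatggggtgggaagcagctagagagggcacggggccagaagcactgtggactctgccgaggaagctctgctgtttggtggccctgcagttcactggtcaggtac
Igfbp2: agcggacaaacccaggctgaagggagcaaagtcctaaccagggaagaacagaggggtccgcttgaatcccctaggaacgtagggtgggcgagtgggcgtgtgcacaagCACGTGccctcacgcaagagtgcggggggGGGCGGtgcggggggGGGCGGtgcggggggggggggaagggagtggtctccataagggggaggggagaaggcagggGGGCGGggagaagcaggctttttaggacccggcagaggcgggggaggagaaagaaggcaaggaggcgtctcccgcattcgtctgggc
Igfbp4: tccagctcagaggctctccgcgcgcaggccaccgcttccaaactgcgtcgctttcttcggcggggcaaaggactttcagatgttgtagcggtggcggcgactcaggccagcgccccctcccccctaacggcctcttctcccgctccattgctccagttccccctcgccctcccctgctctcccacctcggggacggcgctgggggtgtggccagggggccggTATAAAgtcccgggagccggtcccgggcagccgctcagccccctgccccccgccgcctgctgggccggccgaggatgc
The Igf1 and Igf2 windows held none of the 5 motifs, and they had 6 and 2 CpG dinucleotides, against a median of 7 over 32851 mouse promoter windows of the same length. The Igfbp2 window had 18 CpG, 3 GC boxes and 1 E-box. The Igfbp4 window had 27 CpG and the only TATAAA match of the 9 genes, 28 bases before the start. Of all promoter windows, 35.7% held GGGCGG, 7.15% CACGTG, 13.6% TATAAA, 3.65% GTAAACA and 1.79% TGACGTCA. None of the 9 windows held GTAAACA or TGACGTCA. RefSeq lists 4 promoter windows for Igf2, with 2, 14, 24 and 7 CpG, and the one shown is nearest the start of its principal annotated transcript. The counts are per gene and do not say which was used.

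Libraries held 21.7 M to 25.3 M counts in PVT of STZ mice, 17.9 M to 24.5 M in PVT of control mice, 19.0 M to 25.5 M in pIC of STZ mice and 21.2 M to 23.3 M in pIC of control mice. The lowest count of any of the 10 genes in a library was 86, for Igf1. Levels are given as CPM, the counts of a gene scaled to a common library total, after TMM scaling over all 20 libraries. The 12 thalamic neuron markers summed to 472 to 2035 CPM in PVT of STZ mice and 474 to 1045 CPM in PVT of control mice, against 152 to 207 CPM in pIC of STZ mice and 165 to 200 CPM in pIC of control mice. The 4 PVT libraries lowest in these markers were STZ replicates 1, 2 and 3 and control replicate 2, and results that rest on PVT were refitted without them. The 16 choroid plexus epithelium markers summed to 2053 to 4616 CPM in PVT of STZ mice and 4262 to 8158 CPM in PVT of control mice, against 210 to 375 CPM in pIC of STZ mice and 215 to 250 CPM in pIC of control mice. Each of the 16 had counts in every group, and none of the 5 defining ones was at 0.

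In PVT, 0 of the 10 genes passed the edgeR quasi-likelihood test of STZ against control mice at an adjusted p under 0.05, where 2.07% of the 17076 genes tested passed. An unadjusted p under 0.05 was reached by 4 of the 10 and by 17.8% of all genes. DESeq2 called 1 of the 10, Igf1, and limma-voom called 0. In pIC, 0 of the 10 passed edgeR, DESeq2 or limma-voom, and edgeR passed 1.40% of 16189 genes. An unadjusted p under 0.05 was reached there by 2 of the 10 and by 11.8% of all genes. The median log2 fold change of the 10, STZ over control, was -0.08 in PVT and -0.03 in pIC, beside 0.00 over all genes tested in each region. The largest size of change was 0.58 in PVT and 0.20 in pIC.

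**Figure D1:**
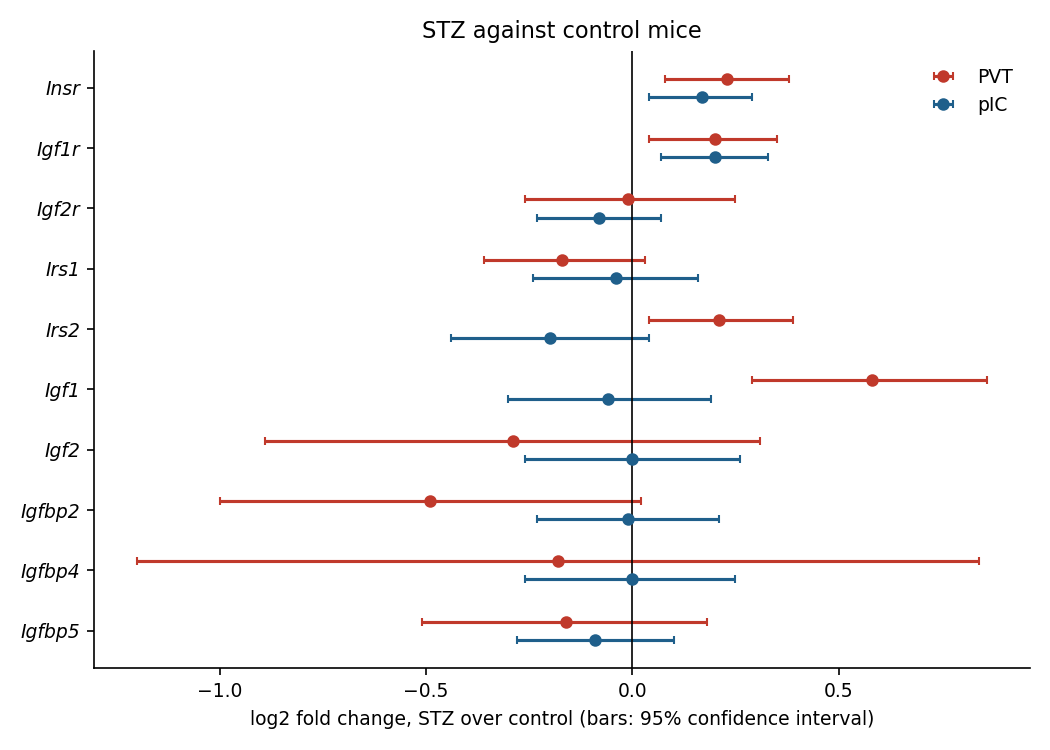
Log2 fold change of each gene, STZ over control mice, on a linear axis, with the 95% confidence interval as a bar, for PVT (n = 6 STZ, 4 control libraries) and pIC (n = 6 STZ, 4 control libraries). Igf1 in PVT lies farthest from 0, at 0.58, and the Igfbp4 bar in PVT is the widest, from -1.20 to 0.84.

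Igf1, the growth factor that acts through Igf1r, was the member with the largest STZ difference in PVT. Its level in PVT was 6.79 CPM at the lowest, 7.61 at the median and 9.58 at the highest in the 6 STZ libraries, against 4.36, 5.21, 6.33 and 4.81 CPM in the 4 control libraries. Every STZ library was above every control library. Among the 10 genes, 1 had PVT groups that did not overlap, where 6.20% of all genes tested did. The log2 fold change was 0.58 (SE 0.132, 95% interval 0.29 to 0.86), and the adjusted p from edgeR was 0.0514, above the threshold of 0.05. Across 19 alternative settings the fold change was 0.31 to 0.68, with adjusted p from 0.00382 to 0.536. Igf1 was called with RLE scaling (adjusted p 0.0499), DESeq2 (0.00382), 1 fit over all 20 libraries (0.0179) and without control replicate 3 (0.0398), and not in the other settings.

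The choroid plexus markers moved against Igf1 in PVT. Deviations of Igf1 from its group mean had a Pearson r of -0.81 with those of the choroid plexus marker score over the 10 PVT libraries, which share dissection and library depth with it. In the same libraries r was -0.68 with the striatal projection neuron score. Over all 20 libraries r was -0.71 with the striatal score and -0.67 with the choroid plexus score. With the choroid plexus score as a covariate the Igf1 fold change was 0.31, with an edgeR adjusted p of 0.536. The sums and scores of this list overlapped only narrowly between STZ and control mice. The sums were 2053 to 4616 CPM in STZ mice and 4262 to 8158 CPM in control mice. A fit with this score can therefore hardly separate the score from STZ. Over all genes, calls fell from 353 to 62 with the score. The same limit holds for the PVT fits of Igf2, Igfbp2, Sh2b2 and Ddit4 with this score. Without the 4 PVT libraries lowest in thalamic neuron markers the Igf1 fold change was 0.64, with an adjusted p of 0.236. Of 15 marker lists, the STZ and control libraries of PVT stood apart by summed CPM in 3 and by the marker score, the mean log2 CPM of a list, in 2, and 1 list, ependyma, was apart by both. The 12 ependymal markers summed to 86.8 to 121 CPM in STZ mice and 140 to 200 CPM in control mice. The 12 oligodendrocyte markers were apart by score only, at 7.67 to 8.07 in STZ mice and 8.12 to 8.37 in control mice, while their sums overlapped at 6999 to 9726 CPM in STZ mice and 8619 to 10631 CPM in control mice. The 8 border macrophage markers were apart by sum only, at 18.5 to 27.8 CPM in STZ mice and 14.6 to 15.1 CPM in control mice, with scores of 0.22 to 0.75 in STZ mice and 0.13 to 0.27 in control mice. Endothelial markers, 12 genes, were also apart by sum only, at 474 to 548 CPM in STZ mice and 411 to 441 CPM in control mice, with scores of 4.57 to 4.88 in STZ mice and 4.66 to 4.70 in control mice. The 12 microglial markers overlapped by both, with sums of 333 to 360 CPM in STZ mice and 337 to 393 CPM in control mice. All members of these lists had counts in both groups, with no defining marker at 0, and their part in the Igf1 value was not tested. In tissue punches, fewer cells of a type and less RNA per cell cannot be told apart.

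In pIC, Igf1 was at 8.45 CPM at the lowest, 10.7 at the median and 13.1 at the highest in STZ libraries, against 12.3, 10.4, 10.6 and 10.8 CPM in control libraries. The STZ range enclosed the control range. The summed border macrophage markers did not overlap there, at 22.8 to 31.2 CPM in STZ mice and 15.4 to 18.3 CPM in control mice, while their scores did, at 0.38 to 1.21 in STZ mice and 0.32 to 0.47 in control mice. For Igf1 the log2 fold change was -0.06 (95% interval -0.30 to 0.19, edgeR adjusted p 0.904). The difference between the STZ effects, PVT minus pIC, was 0.62 on the log2 scale (95% interval 0.24 to 0.99). Its unadjusted p was 0.00247 and its adjusted p from edgeR's interaction test 0.909. For that interaction 0 of the 10 genes and 0% of the 17427 genes tested passed edgeR, while 2 of the 10 and 4.02% of all genes had an unadjusted p under 0.05. DESeq2 called 0 of the 10 genes and 4 of all genes for the same term.

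Igf2, the growth factor bound by both Igf1r and Igf2r and imprinted in most tissues, was high and variable in PVT. It was at 68.2 CPM at the lowest, 120 at the median and 175 at the highest in PVT of STZ mice, against 218, 129, 96.6 and 164 CPM in PVT of control mice. The groups overlapped, and 2 of 6 STZ libraries lay above the control median. Its log2 fold change was -0.29, with a 95% interval from -0.89 to 0.31 that allows changes of either sign (edgeR adjusted p 0.632). In pIC, Igf2 ranged from 42.7 to 60.8 CPM with a median of 51.0 in STZ mice, against 56.3, 47.1, 55.4 and 46.8 CPM in control mice, and the fold change was 0.00 (95% interval -0.26 to 0.26, edgeR adjusted p 0.994).

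Deviations of Igf2 had an r of 0.73 with the choroid plexus score in the 10 PVT libraries. In the same libraries r was 0.79 with the striatal projection neuron score and -0.76 with the endothelial score. Over all 20 libraries the r with the choroid plexus score was 0.27. With that score as a covariate its PVT fold change was 0.30, against -0.29 without it, and neither was called. Igf2os, annotated on the opposite strand of Igf2, had 1 to 15 counts in a library, and Gm49394, on the same strand, had 0 to 7. The Igf2 counts of 805 to 4456 in a library were far above both. Reads of overlapping genes could not be told apart where counting ignored strand, and the sources used here do not give the strand setting.

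The insulin genes themselves were barely present. Ins1 had 0 counts in all 20 libraries. Ins2 had 1 to 5 counts in PVT libraries of STZ mice and 1 to 8 counts in PVT libraries of control mice, with 0 counts in all pIC libraries. Neither entered a test.

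Insr, the insulin receptor, passed in neither region and had a positive fold change in both. In PVT it was at 46.7 CPM at the lowest, 53.2 at the median and 57.1 at the highest in STZ libraries, against 49.7, 45.4, 41.1 and 45.5 CPM in control libraries. In pIC it was at 46.7, 50.8 and 54.6 CPM at the lowest, median and highest of the STZ libraries, against 47.6, 43.0, 44.6 and 45.7 CPM in control libraries. All 6 STZ libraries were above the control median in each region, though the ranges overlapped in both. In PVT its log2 fold change was 0.23 (95% interval 0.08 to 0.38), with an unadjusted p of 0.00742 and an adjusted p of 0.126 from edgeR. In pIC it was 0.17 (95% interval 0.04 to 0.29), with an unadjusted p of 0.0150 and an adjusted p of 0.262.

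Igf1r, the receptor tyrosine kinase for both IGFs, was at 57.2 CPM at the lowest, 64.7 at the median and 72.4 at the highest in PVT of STZ mice, against 59.9, 55.9, 56.2 and 52.1 CPM in PVT of control mice. In pIC it was at 69.5, 73.7 and 80.1 CPM at the lowest, median and highest of the STZ libraries, against 67.0, 57.2, 64.2 and 68.3 CPM in control libraries. All pIC libraries of STZ mice were above all of control mice, the only case among the 10 genes in pIC, where 4.28% of all genes tested did not overlap. The log2 fold change was 0.20 in PVT (95% interval 0.04 to 0.35, edgeR adjusted p 0.177) and 0.20 in pIC (95% interval 0.07 to 0.33, edgeR adjusted p 0.142). The difference between regions was -0.02 for Igf1r and 0.05 for Insr on the log2 scale, with 95% intervals of -0.21 to 0.17 and -0.14 to 0.24.

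Igf1r and Insr have the longest exons of the 10 genes, 16.8 and 13.7 kb, and fold changes moved with length over all genes. Among genes with at least 8 kb of exon, the median log2 fold change, STZ over control, was 0.08 in PVT, with 68.8% positive and an upper quartile of 0.18. In pIC the median was 0.04, with 63.8% positive and an upper quartile of 0.11. Among genes under 2 kb the medians were -0.07 in PVT and -0.03 in pIC. Igf1, Igf2r and Irs1, with 9.9, 9.31 and 9.14 kb, were also in the class of at least 8 kb. Their log2 fold changes were 0.58, -0.01 and -0.17 in PVT and -0.06, -0.08 and -0.04 in pIC. The part of this relation in the values of the 10 genes was not tested.

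Igf2r, the cation-independent mannose 6-phosphate receptor, carries Igf2 to lysosomes for breakdown and does not signal as a kinase. Its level was 24.1 to 34.3 CPM with a median of 28.3 in PVT of STZ mice, against 35.4, 28.0, 25 and 27.2 CPM in PVT of control mice. In pIC it was 22.4 to 27.3 CPM with a median of 24.4 in STZ mice, against 25, 25.1, 28.2 and 25.3 CPM in control mice. The ranges overlapped in both regions, and the log2 fold changes were -0.01 in PVT (95% interval -0.26 to 0.25) and -0.08 in pIC (95% interval -0.23 to 0.07). Airn, a non-coding RNA annotated on the opposite strand, had 1 to 17 counts in a library.

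**Figure D2:**
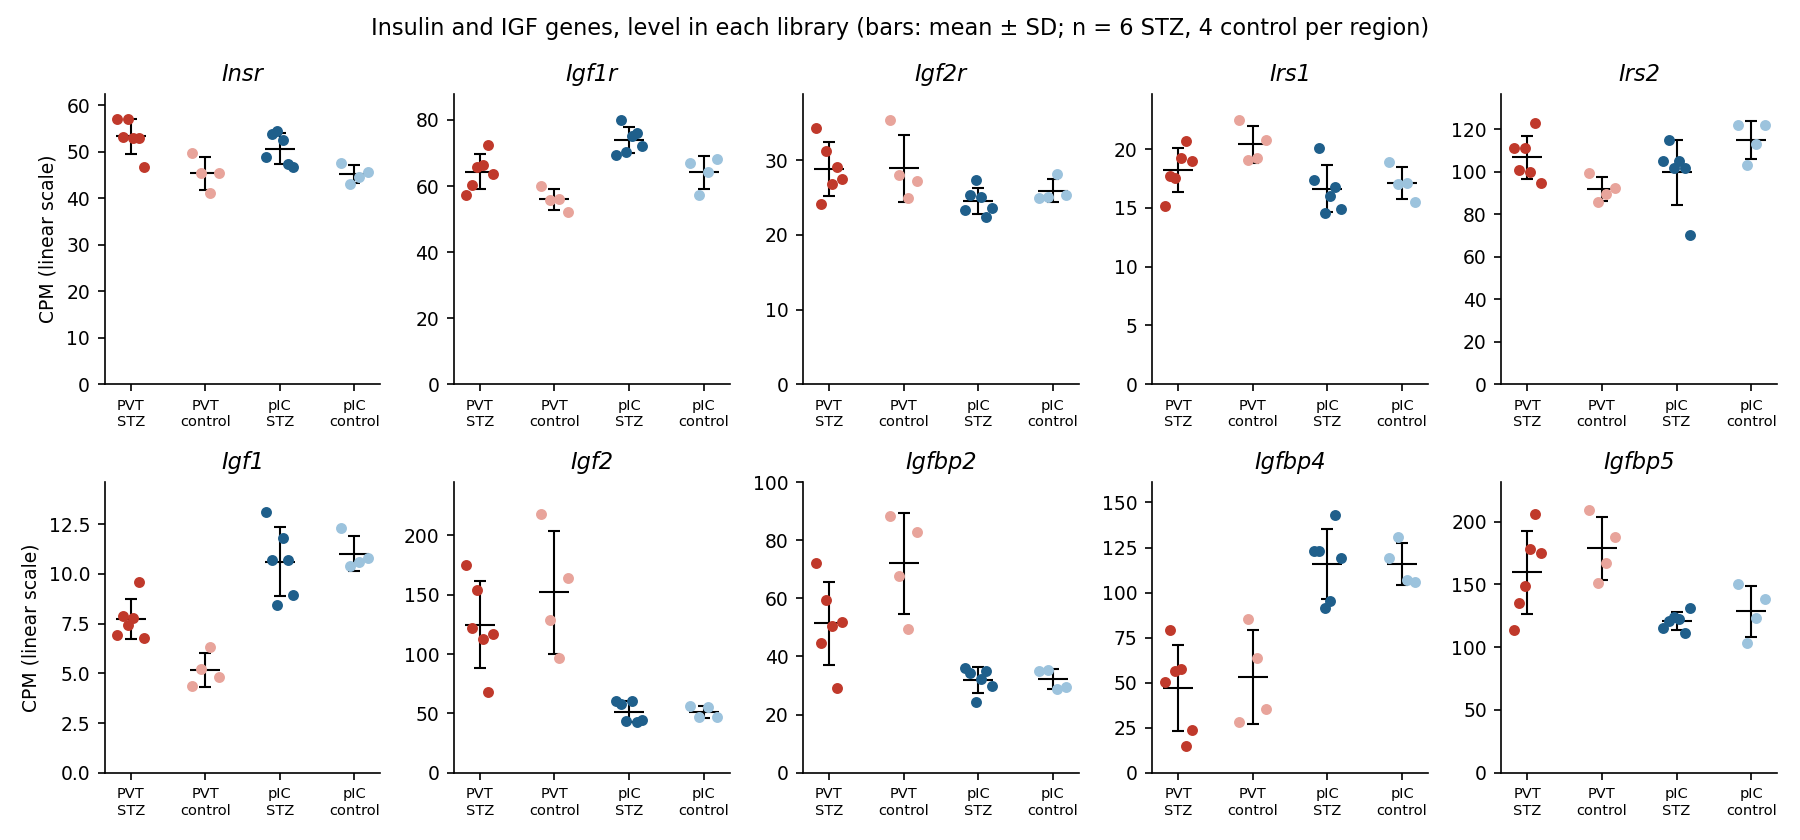
Level of each gene in every library in CPM on a linear axis that starts at 0, by group, with points for libraries and bars for the mean ± SD (n = 6 STZ and 4 control libraries for each region). Igf1 in PVT shows no overlap between STZ and control libraries, Igf2 and Igfbp2 are higher and more spread in PVT than in pIC, and Igfbp4 in PVT spreads from 14.7 to 85.1 CPM.

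Irs1 and Irs2 are the adaptor proteins that carry the signal of the insulin and IGF1 receptors to PI3-kinase. Irs2 in PVT was at 94.7 CPM at the lowest, 106 at the median and 123 at the highest in STZ libraries, against 99.6, 86.0, 89.7 and 92.4 CPM in control libraries. All 6 STZ libraries were above the control median, with overlap through the highest control library. In pIC the sign was the other way, with 70.2, 104 and 115 CPM at the lowest, median and highest of the STZ libraries, against 122, 103, 113 and 122 CPM in control libraries. There, 0 of 6 STZ libraries were above the control median.

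Irs2 had a log2 fold change of 0.21 in PVT (95% interval 0.04 to 0.39, edgeR adjusted p 0.193) and of -0.20 in pIC (95% interval -0.44 to 0.04, edgeR adjusted p 0.526). The difference between the regions was 0.40 (95% interval 0.11 to 0.69), with an unadjusted p of 0.0100 and an adjusted p of 1.00. Without pIC STZ replicate 6, the lowest Irs2 library, the pIC fold change was -0.12.

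Irs1 was at 15.2 to 20.7 CPM with a median of 18.3 in PVT of STZ mice, against 22.5, 19.1, 19.2 and 20.8 CPM in PVT of control mice. In pIC it was at 14.6 to 20.1 CPM with a median of 16.4 in STZ mice, against 18.9, 17.0, 17.1 and 15.5 CPM in control mice. The groups overlapped in both regions, and 1 of 6 PVT libraries of STZ mice was above the control median. The log2 fold changes were -0.17 in PVT (95% interval -0.36 to 0.03, edgeR adjusted p 0.369) and -0.04 in pIC (95% interval -0.24 to 0.16, edgeR adjusted p 0.911).

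Igfbp2, a secreted binding protein with high affinity for Igf2, was at 29.3 CPM at the lowest, 51.2 at the median and 72.3 at the highest in PVT of STZ mice, against 88.2, 67.7, 49.5 and 82.7 CPM in PVT of control mice. None of the 6 STZ libraries exceeded the control median, and the ranges overlapped, with the highest STZ library above control replicates 2 and 3. Its log2 fold change was -0.49, with a 95% interval from -1.0 to 0.02 and an edgeR adjusted p of 0.303. Its deviations had an r of 0.79 with the choroid plexus score in the 10 PVT libraries and of 0.20 over all 20 libraries. In PVT the r was 0.86 with the striatal projection neuron score and -0.74 with the endothelial score. With the choroid plexus score as a covariate the fold change was 0.04. In pIC, Igfbp2 ranged from 24.3 to 35.9 CPM with a median of 33.3 in STZ mice, against 35.1, 35.4, 28.9 and 29.5 CPM in control mice, and the fold change was -0.01 (95% interval -0.23 to 0.21).

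Igfbp4, a binding protein that releases IGF when the protease PAPP-A cuts it, had the widest spread of the 10 genes in PVT. It was at 14.7 CPM at the lowest, 53.2 at the median and 79.2 at the highest in STZ libraries, against 28.4, 85.1, 63.7 and 35.6 CPM in control libraries. The highest library had 5.39 times the level of the lowest among STZ mice and 3.0 times among control mice. On the log2 scale the difference was -0.18, with a 95% interval from -1.20 to 0.84 (edgeR adjusted p 0.875), which includes a 2-fold lower level. In pIC, Igfbp4 ranged from 91.6 to 143 CPM with a median of 121 in STZ mice, against 119, 131, 107 and 106 CPM in control mice, and the fold change was -0.00 (95% interval -0.26 to 0.25).

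The Igfbp4 level went with neuron markers of the PVT punches. Its deviations had an r of -0.81 with the thalamic neuron score, 0.82 with the cortical excitatory neuron score and 0.90 with the interneuron score over the 10 PVT libraries. The 12 cortical excitatory neuron markers summed to 1726 to 3930 CPM in PVT of STZ mice and 1226 to 3526 CPM in PVT of control mice, against 5484 to 8090 CPM in pIC of STZ mice and 6966 to 7781 CPM in pIC of control mice. The highest Igfbp4 levels were in STZ replicate 2 and control replicate 2, both among the 4 PVT libraries lowest in thalamic neuron markers. The lowest level, 14.7 CPM, was in STZ replicate 5.

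Igfbp5, a binding protein that also sticks to extracellular matrix, differed from Igfbp4 in this. Its deviations had an r of 0.86 with the thalamic neuron score in PVT. It was at 114 CPM at the lowest, 162 at the median and 206 at the highest in PVT of STZ mice, against 209, 151, 167 and 188 CPM in PVT of control mice. In pIC it ranged from 111 to 131 CPM with a median of 121 in STZ mice, against 150, 103, 123 and 138 CPM in control mice. The ranges overlapped in both regions, with log2 fold changes of -0.16 in PVT (95% interval -0.51 to 0.18, edgeR adjusted p 0.637) and -0.09 in pIC (95% interval -0.28 to 0.10, edgeR adjusted p 0.754).

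**Figure D3:**
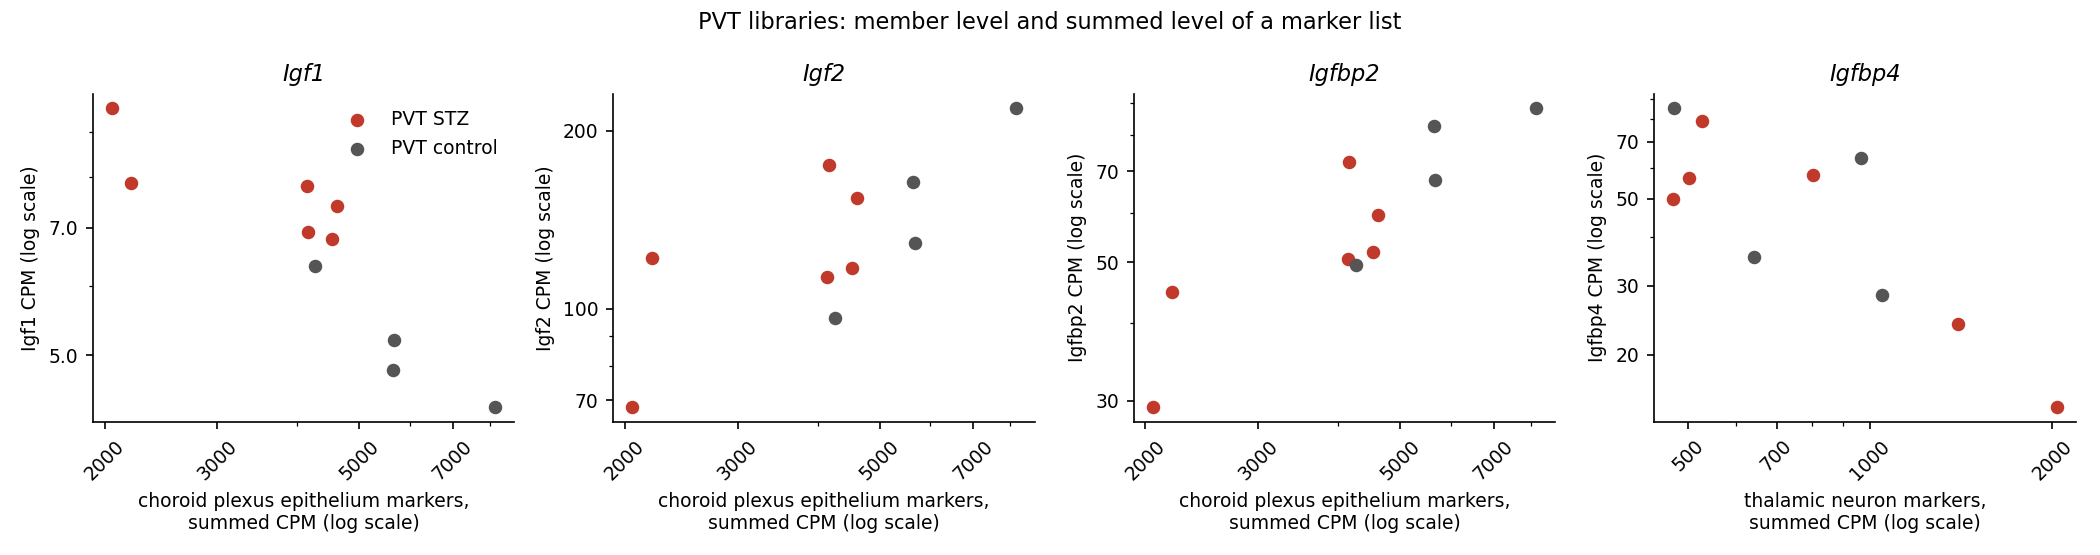
Level of Igf1, Igf2, Igfbp2 and Igfbp4 in CPM in the 10 PVT libraries (6 STZ, 4 control) against the summed CPM of a marker list, all axes on a log scale. Where choroid plexus markers, which run from 2053 to 8158 CPM, are high, Igf1 is low and Igf2 and Igfbp2 are high, and where thalamic neuron markers, which run from 472 to 2035 CPM, are high, Igfbp4 is low.

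The regions were compared against a minimum fold of 2, separately in STZ and in control mice. By edgeR's test 0 of the 10 genes passed in STZ mice, where 3.60% of 16489 genes did, and 0 of the 10 in control mice, where 5.25% of 16614 genes did. DESeq2 against the same fold also called 0 in each. An unadjusted p under 0.05 was reached by 1 of the 10 in STZ mice, against 6.57% of all genes, and by 1 in control mice, against 9.88% of all genes. That gene was Igf2 in both. With no minimum fold, 7 of the 10 passed in STZ mice, 4 of them higher in PVT, beside 49.1% of all genes and 26.0% higher. In control mice 7 of the 10 passed, 4 of them higher in PVT, beside 47.8% of all genes and 25.5% higher.

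Igf2 had the largest regional difference toward PVT. Its mean was 125 ± 36.8 CPM in PVT and 51.6 ± 8.99 CPM in pIC of STZ mice (SD, n = 6 each), a log2 fold change of 1.27 (SE 0.193), and every PVT library was above every pIC library. In control mice it was 152 ± 52.0 CPM in PVT and 51.4 ± 5.16 CPM in pIC (SD, n = 4 each), a log2 fold change of 1.57 (SE 0.233). The edgeR adjusted p against a minimum fold of 2 was 0.466 in STZ mice and 0.0787 in control mice, and with no minimum fold it was 1.9e-04 and 8.5e-04. Without PVT control replicate 3, the lowest control library in PVT, the control value was 1.72 and passed the minimum fold, with an adjusted p of 0.00599. Without the PVT libraries lowest in thalamic neuron markers, Igf2 was at 0.94 in STZ mice and 1.62 in control mice.

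Igfbp2 was higher in PVT than in pIC by 0.68 on the log2 scale in STZ mice and by 1.17 in control mice, with edgeR adjusted p of 0.00579 and 5.8e-04 with no minimum fold. Igfbp5 was higher in PVT by 0.40 in STZ mice and by 0.48 in control mice, with adjusted p of 0.0137 and 0.0102 by the same test. Without the PVT libraries lowest in thalamic neuron markers, Igfbp2 was at 0.45 in STZ mice and 1.18 in control mice. Igfbp5 was then at 0.62 in STZ mice and 0.53 in control mice. The choroid plexus sums given above were higher in every PVT library than in any pIC library, and their part in the Igf2 and Igfbp2 differences between regions was not tested. The leptomeningeal and perivascular fibroblast markers, which mark another cell type known to make Igf2, summed to 515 to 834 CPM in PVT and 612 to 947 CPM in pIC of STZ mice, with 445 to 859 CPM in PVT and 693 to 761 CPM in pIC of control mice. All 16 had counts in every group, with no defining marker at 0.

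Igfbp4 and Igf1 were lower in PVT than in pIC. Igfbp4 had a log2 fold change, PVT over pIC, of -1.30 (SE 0.330) in STZ mice and -1.12 (SE 0.338) in control mice, with edgeR adjusted p of 0.00604 and 0.0292 with no minimum fold. Its PVT and pIC ranges did not overlap in STZ or in control mice. Igf1 had a fold change of -0.46 (SE 0.117) in STZ mice and -1.08 (SE 0.131) in control mice, with adjusted p of 0.00559 and 9.3e-05. In STZ mice the Igf1 ranges of the regions overlapped, at 6.79 to 9.58 CPM in PVT and 8.45 to 13.1 CPM in pIC, and in control mice they did not, at 4.36 to 6.33 CPM in PVT and 10.4 to 12.3 CPM in pIC.

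The remaining regional differences were small. Igf1r was lower in PVT by the test with no minimum fold in STZ mice, with a fold change of -0.20 (edgeR adjusted p 0.0123), and was at -0.19 in control mice (adjusted p 0.0543). Igf2r was higher in PVT at 0.23 in STZ mice (adjusted p 0.0272) and stood at 0.17 in control mice (adjusted p 0.212). Irs2 was lower at -0.31 in control mice (adjusted p 0.00634) and stood at 0.09 in STZ mice (adjusted p 0.481), while Irs1 was higher at 0.26 in control mice (adjusted p 0.0304) and stood at 0.13 in STZ mice (adjusted p 0.260). Insr differed by 0.07 in STZ mice and 0.02 in control mice, with 95% intervals of -0.05 to 0.20 and -0.14 to 0.17. The PVT and pIC ranges did not overlap for 2 of the 10 genes in STZ mice, beside 27.8% of all genes, and for 7 of the 10 in control mice, beside 45.4% of all genes.

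**Figure D4:**
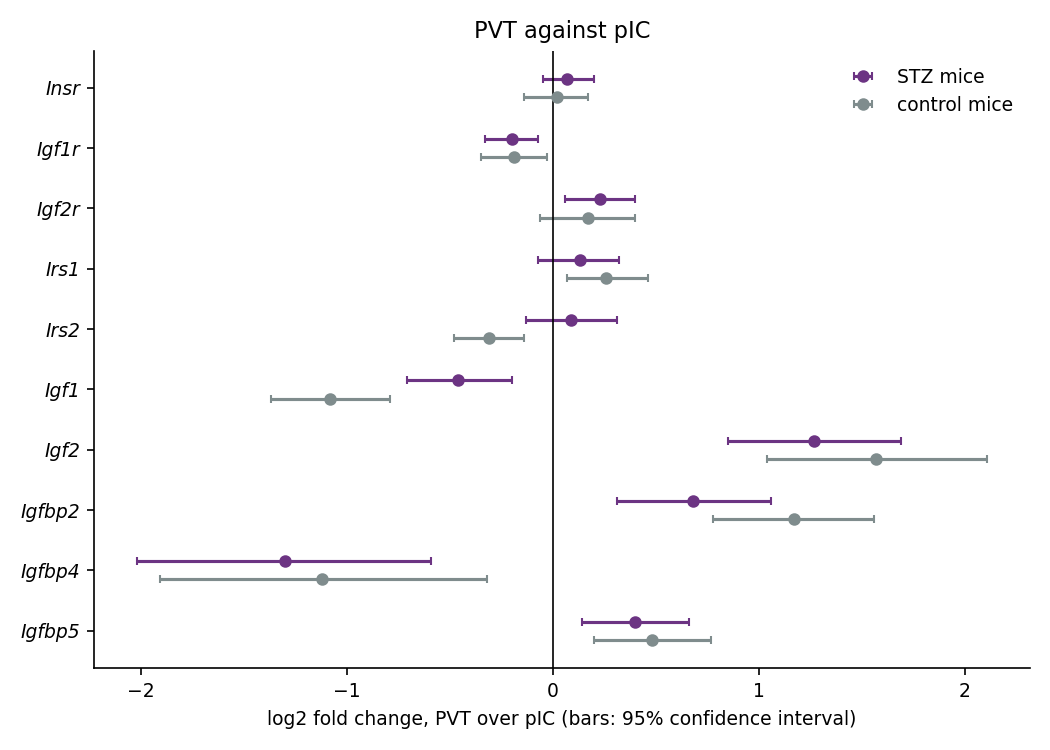
Log2 fold change of each gene, PVT over pIC, on a linear axis, with the 95% confidence interval as a bar, in STZ mice (n = 6 libraries each) and control mice (n = 4 libraries each). Igf2 lies farthest right, at 1.27 in STZ mice and 1.57 in control mice, and Igfbp4 farthest left, at -1.30 in STZ mice and -1.12 in control mice.

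Levels of different genes were compared as mean CPM per kilobase of exon. A binding protein came first in each of the 4 groups. In PVT of STZ mice the order was Igfbp2 (27.8 ± 7.78), Igfbp5 (26.6 ± 5.54), Igf2 (21.8 ± 6.43), Irs2 (16.9 ± 1.64) and Igfbp4 (10.6 ± 5.37 CPM per kb, SD, n = 6), and each overlapped the next in range. In PVT of control mice the same 5 led in the same order, at 39.0 to 12 CPM per kb (n = 4), with Igf2 and Irs2 not overlapping.

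In pIC, Igfbp4 came first, at 26.2 ± 4.35 CPM per kb in STZ mice (SD, n = 6) and 26.2 ± 2.68 in control mice (SD, n = 4). Igfbp5 followed at 20.1 ± 1.21 in STZ mice and 21.4 ± 3.35 in control mice, and its range overlapped that of Igfbp4. Irs2 and Igfbp2 came next with overlapping ranges, at 15.8 and 17.3 CPM per kb in STZ mice and 18.2 and 17.5 in control mice, and Igf2 stood apart below them at 9.01 in STZ mice and 8.98 in control mice.

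The receptors and Irs1 were lower, and Igf1 was last in each group. Insr, Igf1r and Igf2r were at 3.88, 3.83 and 3.10 CPM per kb in PVT of STZ mice and 3.31, 3.34 and 3.10 in PVT of control mice, with overlapping neighbours. In pIC they were at 3.69, 4.40 and 2.63 in STZ mice, with no overlap between neighbours, and 3.29, 3.82 and 2.78 in control mice, where Igf1r and Insr overlapped. Irs1 was at 1.99 CPM per kb in PVT and 1.82 in pIC of STZ mice, with 2.23 in PVT and 1.87 in pIC of control mice. Igf1 was at 0.781 CPM per kb in PVT and 1.07 in pIC of STZ mice, with 0.523 in PVT and 1.11 in pIC of control mice.

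The 10 genes did not vary as 1 group. Among the 45 pairs, the Pearson r of deviations from the group means over 20 libraries had a median of 0.07 and ran from -0.69 for Igfbp4 with Igfbp5 to 0.87 for Igf2 with Igfbp2. It was above 0.5 in 8 pairs, among them Igf1r with Igfbp5 (0.71), Insr with Igf2r (0.67) and Insr with Irs2 (0.60). Within the 10 PVT libraries, Igf2 and Igfbp2 had an r of 0.96, and Igf1 had an r of -0.90 with Igf2 and -0.92 with Igfbp2. Within the 10 pIC libraries the sign for Igf1 was the other way, at 0.77 with Igf2 and 0.74 with Igfbp2, while Igf2 with Igfbp2 was at 0.42. In PVT, Irs1 and Igfbp5 had an r of 0.97. With the thalamic neuron score of those libraries, r was 0.78 for Irs1, 0.86 for Igfbp5 and 0.75 for Igf1r. With the hypothalamic and pituitary score it was 0.71 for Irs1, 0.80 for Igfbp5 and 0.36 for Igf1r. Libraries of each region share dissection and depth, so these values are descriptions.

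**Figure D5:**
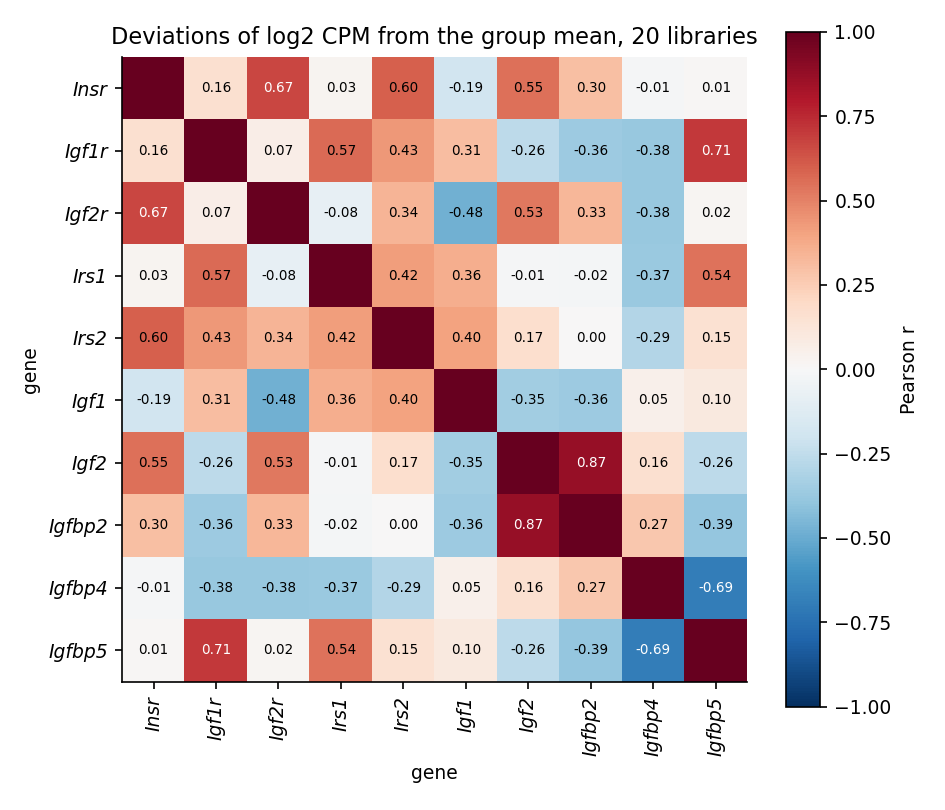
Pearson r between deviations of log2 CPM from the group mean for each pair of the 10 genes over 20 libraries, on a colour scale from -1 to 1. Igf2 with Igfbp2 is highest at 0.87 and Igfbp4 with Igfbp5 lowest at -0.69.

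The genes whose deviations were most like each member were taken from 13486 genes with a mean of at least 1 CPM, over the same 20 libraries. Igfbp4 was followed most closely, by Npy (r 0.99), a neuropeptide of cortical interneurons that is also in the interneuron marker list, Ephx4 (0.98) and Lamp5 (0.98). Insr was followed by Trrap (0.97), Ppp4r3a (0.93) and Nup210 (0.92), and Igfbp5 by Gabre (0.92), Ccdc82 (0.89) and Clcn5 (0.89). For Igfbp2 they included Sfrp1 (0.86) and Pcolce (0.82), and for Igf2 Slc13a4 (0.84), which is in the leptomeningeal marker list, Slco1c1 (0.83) and Slc30a7 (0.83). For Igf1 they were Tspan13 (0.83), Ttc7b (0.79) and Tm6sf1 (0.76), and for Igf1r Arfgef3 (0.84), Cdkl2 (0.83) and Abca2 (0.83). For Igf2r they included Rab30 (0.85) and Ttll4 (0.84). For Irs1 they were Sema6c (0.83), Mettl7a1 (0.80) and Gstt1 (0.79), and for Irs2 Ddx17 (0.82), Ddit4 (0.81) and Errfi1 (0.79).

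Other genes of the pathway were read from 5 lists. Among 14 other receptors and adaptors, 1 rose in PVT of STZ mice, 0 fell and 13 did not pass, beside 2.07% of all genes called. It was Sh2b2, an adaptor that binds the activated insulin receptor, at 5.93 to 8.72 CPM with a median of 7.27 in STZ mice, against 5.38, 3.78, 4.24 and 4.85 CPM in control mice. All STZ libraries were above all control libraries, and the log2 fold change was 0.68 (SE 0.146, edgeR adjusted p 0.0384). The call was lost without 8 of the 10 libraries left out in turn, with fold changes of 0.60 to 0.77. It was also lost without the 4 PVT libraries lowest in thalamic neuron markers (0.71, adjusted p 0.161). With the choroid plexus score as a covariate, which can hardly be separated from STZ in PVT, the call was lost too (0.77, adjusted p 0.297). In pIC 0 of 12 tested genes of this list passed edgeR or limma-voom, with 4 at an unadjusted p under 0.05 by edgeR, beside 11.8% of all genes. There Grb14, an adaptor that inhibits the insulin receptor, had the smallest p, with a fold change of 0.29 and an edgeR adjusted p of 0.118, and it was the 1 gene that DESeq2 called.

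Of 28 genes of PI3-kinase, AKT and mTORC1 signalling, 0 passed edgeR in PVT, with 5 at an unadjusted p under 0.05, beside 17.8% of all genes. In pIC 0 passed, with 3 at an unadjusted p under 0.05, beside 11.8% of all genes. DESeq2 called Gsk3a, Pik3cb and Tsc2 higher in PVT of STZ mice and 0 of the 28 in pIC, and limma-voom called 0 in either region. The log2 fold change was positive for 23 of the 28 in PVT, beside 50.8% of all genes, and for 22 in pIC, beside 49.8%. The medians were 0.10 in PVT and 0.03 in pIC, beside 0.00 over all genes. Among all genes with at least 8 kb of exon, 68.8% were positive in PVT and 63.8% in pIC, and the part of exon length in this list was not tested. Pik3cb, a catalytic PI3-kinase subunit, had the smallest p in PVT, at 0.33 (edgeR adjusted p 0.0798), and Tsc2, an inhibitor of mTORC1, in pIC, at 0.13 (adjusted p 0.197).

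Among FOXO factors and their targets, 1 of 18 tested genes rose in each region and 0 fell, beside 2.07% of all genes called in PVT and 1.40% in pIC. At an unadjusted p under 0.05 there were 4 of the 18 in PVT, beside 17.8% of all genes, and 8 in pIC, beside 11.8%. The gene that rose was Ddit4, a stress-induced inhibitor of mTORC1 that glucocorticoids also induce, at 0.54 in PVT (SE 0.0680, edgeR adjusted p 0.00188) and 0.58 in pIC (SE 0.0844, adjusted p 0.00218). In pIC, DESeq2 and limma-voom each called 4 of the 18, Ddit4, Foxo4 and Sesn1 higher and Foxo6 lower. The PVT call of Ddit4 was lost without the 4 PVT libraries lowest in thalamic neuron markers (0.50, adjusted p 0.0920). With the choroid plexus score as a covariate, which can hardly be separated from STZ in PVT, that call was lost too (0.55, adjusted p 0.0513). For other binding proteins 0 of 4 tested genes passed edgeR in either region, and for ligands and the enzymes that act on them 0 of 5 passed in PVT and 0 of 4 in pIC. At an unadjusted p under 0.05 there was 1 binding protein, Igfbp3, in pIC, at 0.27 (adjusted p 0.386), and no gene of the ligand list in either region. DESeq2 and limma-voom called 0 genes of these lists in either region.

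Between regions, the genes higher in PVT past the minimum fold of 2 were 2 of 13 tested receptors and adaptors, 1 of 4 binding proteins and 1 of 5 genes of the ligand list, the same 4 genes in STZ and in control mice, and 1 gene of the ligand list was lower, in STZ mice. Of all genes, 3.10% were higher in PVT past this fold in STZ mice and 4.70% in control mice. For PI3-kinase signalling (28 genes) and FOXO targets (18 genes) 0 passed by edgeR or DESeq2 in STZ or control mice, with 1 FOXO target, Txnip, at an unadjusted p under 0.05 in control mice, and 0 of either list in STZ mice. Irs4, an adaptor related to Irs1 and Irs2 and known from the hypothalamus, was at 7.89 to 39.0 CPM in PVT and 0.165 to 0.531 CPM in pIC of STZ mice, a log2 fold change of 6.22 (edgeR adjusted p 2.9e-05). In control mice it was at 64.0, 10.6, 41.0 and 43.3 CPM in PVT and 0.269, 0.241, 0.589 and 0.277 CPM in pIC, a fold change of 6.85 (adjusted p 0.00217). The 13 hypothalamic and pituitary markers summed to 15.2 to 936 CPM in PVT and 10.1 to 15.5 CPM in pIC of STZ mice, with 15.7 to 14821 CPM in PVT and 10.1 to 53.9 CPM in pIC of control mice, and their part in the Irs4 difference was not tested.

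Grb10, an imprinted adaptor that inhibits both receptors, was higher in PVT by 1.69 in STZ mice (adjusted p 8.9e-04) and by 1.71 in control mice (adjusted p 0.0114). The control call was lost with no filter on low counts (1.70, adjusted p 0.0528). Igfbpl1, a protein related to the IGF-binding proteins, was higher in PVT by 3.13 (adjusted p 0.0147) and 4.19 (adjusted p 1.3e-05) in STZ and control mice, and the STZ call was lost without the 3 STZ libraries lowest in thalamic neuron markers (2.50, adjusted p 0.145). Pappa, which encodes PAPP-A, the protease that cuts Igfbp4, was higher in PVT by 2.04 (adjusted p 0.0312) and 3.19 (adjusted p 0.00301). The STZ call was lost without 7 of the 12 libraries left out in turn, with fold changes of 1.82 to 2.33, and by DESeq2 (adjusted p 0.0958). Its levels were low, at 1.49 to 2.74 CPM in PVT and 0.127 to 0.979 CPM in pIC of STZ mice. Pappa2, a related protease that cuts Igfbp5, was that lower gene, at 0.647 to 1.77 CPM in PVT, against 2.90 to 5.66 CPM in pIC of STZ mice, a fold change of -1.77 (adjusted p 0.0186). In control mice it was at 1.22, 0.784, 1.11 and 8.59 CPM in PVT and 4.98, 2.61, 3.14 and 6.42 CPM in pIC, a fold change of -0.50 (adjusted p 1). The first 3 PVT control libraries were below all pIC control libraries, and the one above them, replicate 4, was the library with 14821 CPM of hypothalamic and pituitary markers. PVT STZ replicates 5 and 6, with 936 and 614 CPM of these markers, had Pappa2 at 1.76 and 0.647 CPM. The part of these markers in the Pappa2 values was not tested.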

How the data were processed

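Poly(A)-selected, stranded libraries were made from PVT and pIC tissue punches and read as paired ends, per the labels' protocols. The authors deposited raw read counts for 57180 Ensembl gene identifiers in 20 libraries, checked here to be whole numbers that sum to 17.9 M to 25.5 M for each library. The genome build was GRCm39 (mm39), per the submitters' processing notes. Not given in the sources used here were the aligner, the counter, whether it used strand, and the annotation release. All libraries were kept, and 51884 identifiers matched a symbol. No libraries within a group were duplicates, since the lowest chi-square per degree of freedom between their counts was 3.79.

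Each comparison was fitted on all genes with the robust quasi-likelihood test of edgeR 4.0.16 (R 4.3.3), after TMM scaling and a filter by filterByExpr at a count of 10 and a total of 15. For the regions glmTreat tested against a minimum fold of 2, and the difference of the STZ effects was the interaction over 20 libraries. Adjusted p is the Benjamini-Hochberg value over all genes tested, with calls under 0.05. Intervals are 95%. Intervals and p-values cover the spread between libraries only. A marker score is the mean log2 CPM of a list, computed with a prior count of 2. Exon lengths and symbols came from another build, and no position on the authors' build is given.

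The 10 genes and the lists were chosen with earlier results of these data known. All 10 were named in each comparison. Of each pathway list up to 4 genes with an adjusted p under 0.05 were named, or the 1 of smallest p where none passed, and for each of the 10 genes the 3 with the highest r, of which 1 for Igfbp2 and 1 for Igf2r are not reported here. The text leaves out the smallest-p gene of some lists with no call. Igfbp3, and the genes called only by DESeq2 or limma-voom, were named after their values were seen. Alternatives were RLE scaling, no filter, DESeq2 1.42.0, limma-voom (limma 3.58.1), replicate blocks, 1 fit over all libraries, marker scores as covariates, no minimum fold and leaving out each library. Leaving out the 4 PVT libraries lowest in thalamic neuron markers was added after seeing the data. The main edgeR fit of each comparison was first tested on simulated data with known changes, and the alternative settings were not.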

Additional observations from a re-analysis of the deposited data

Results flagged for a closer look

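Each of the 10 genes was examined in each of the 4 groups for a library far from the rest, and 2 of the 40 sets stood out by the gap to the nearest library as a share of the range. Chance marks about 1 in 20 such sets. Irs2, an insulin receptor adaptor, was at 70.2 CPM in pIC STZ replicate 6, while the other 5 libraries of that group lay at 102 to 115 CPM, a gap of 0.710 of the range. Igf2r, the receptor that clears Igf2, was at 28.2 CPM in pIC control replicate 3, while the other 3 libraries lay at 25 to 25.3 CPM, a gap of 0.906 of the range.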

How the results depend on the processing

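Over 94 alternatives, 921 of 940 values of the 10 genes stayed uncalled, 19 became called, and 0 of those changed sign. The number of the 10 called for STZ in PVT was 1 with RLE scaling, DESeq2, 1 fit over all libraries and without PVT control replicate 3, each time Igf1, and 0 to 1 with single libraries left out. With no minimum fold it was 7 between regions in control mice and 7 in STZ mice, where fold changes of any size count, and 0 to 1 in control mice with single libraries left out. Signs differed for 57 uncalled values. With the choroid plexus score as a covariate these included Igfbp2 in PVT, at 0.04 against -0.49 without it, and Igf2 in PVT, at 0.30 against -0.29. In PVT that score could hardly be separated from STZ. Over all genes, the PVT count of 353 was 904 by DESeq2, 679 in 1 fit over all libraries, 62 with the choroid plexus score, 70 without the 4 libraries lowest in thalamic markers and 143 to 343 with single libraries left out. The pIC count of 226 was 468 by DESeq2, 367 by limma-voom and 128 to 272 with single libraries left out. The interaction count of 0 was 4 by DESeq2, 1 with no filter and 0 to 3 with single libraries left out. The regional counts of 594 in STZ mice and 873 in control mice were 8089 and 7948 with no minimum fold, and the first was 908 without the libraries lowest in thalamic markers. Of 202 alternative values for 12 calls of pathway genes, 25 lost the call and 0 reversed. The cause was not tested.

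Correlations of deviations from the group means did not show whether equal replicate numbers pair the libraries, since no spread for unpaired libraries was computed. Correlations of same-numbered STZ and control libraries ran from -0.30 to 0.54 in PVT, with 1 of 4 above 0.1, and from -0.04 to 0.41 in pIC, with 2 of 4 above 0.1. Between the regions, libraries with the same label had r from -0.12 to 0.27, with 5 of 10 above 0.1, and the labels do not say whether they came from 1 animal. With the replicate number as a block, the STZ fits kept only numbers present in both groups, so STZ replicates 5 and 6 were left out. In PVT these replicates had Igfbp4 at 14.7 and 24.0 CPM. Igf1 in PVT was then at 0.54 (edgeR adjusted p 0.128), Igfbp4 at 0.30 and Sh2b2 at 0.65 (adjusted p 0.122). These fits called 0 of the 10 genes in either region and 70 of all genes in PVT. The parts of the block and of the libraries left out were not tested. Between regions under the block, Pappa was at 2.09 (adjusted p 0.0949) and Pappa2 at -1.77 (adjusted p 0.0503) in STZ mice.

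The spread between libraries limits the PVT values, where the 95% interval for Igfbp4 was -1.20 to 0.84. STZ effects of 0.20 to 0.23, those of Insr, Igf1r and Irs2 in PVT, were not called with 6 STZ and 4 control libraries.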
